A study of Mus musculus with 53 samples.

Results

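The genes described here are 43 genes of the cell cycle and of DNA replication, chosen by name for their textbook functions, out of 23847 loci listed for each sample. By role they comprise 5 G1 cyclins and E2F factors, 14 DNA replication genes, 22 mitosis genes and 2 inhibitors of cyclin-dependent kinases. Their mRNA levels were measured by poly-A RNA-seq in bone marrow-derived macrophages (BMDMs) of wild-type (WT) mice and of Stat6-/- mice, which lack the transcription factor that carries the interleukin-4 (IL-4) signal to the nucleus. Both kinds of mice were of C57BL/6 background and 8 to 12 weeks old, and the Stat6 deletion was present in every cell of the animal. Marrow cells of both genotypes were differentiated for 6 days in medium with L929 supernatant, a source of the growth factor M-CSF. They were then collected at 0 h, or cultured for 1, 3, 6 or 24 h with IL-4 at 20 ng/ml or without it (control). Each WT group held 4 samples, except that WT with IL-4 for 24 h held 3 because its replicate 1 was not analysed here. Each Stat6-/- group held 2 samples. In all, 35 WT and 18 Stat6-/- samples entered the comparisons, which ask how IL-4 changes these genes and whether Stat6 is needed for the change.

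A dividing cell passes from G1, where D and E cyclins and E2F factors open the way to replication, through S phase, where the MCM helicase unwinds origins and polymerases copy DNA, into mitosis, driven by Cdk1 with A and B cyclins. E2F factors bind promoters of replication genes, while many mitotic promoters carry a CHR element together with CCAAT boxes, which NF-Y binds. BMDMs in M-CSF keep dividing for a time after differentiation, and IL-4 is known to turn macrophages toward an alternative state.

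Promoter letters differed between the replication and the mitosis genes. RefSeq (GRCm38.p6) windows from 250 bases before to 50 bases after a gene's start were at hand for 35 of the 43 genes, 39 windows in all. They were not at hand for Aurkb, Ccna2, Ccnd1, Ccnd2, Ccne2, Kif20a, Mcm4 and Tpx2. The E2F letters (the run TTCCCGC, its variant TTCGCGC, the variant TTGCCGC or the variant TTGGCGC, on either strand) stood in 10 of 13 replication genes and in 3 of 18 mitosis genes. The CHR letters (TTTGAA or its variant TTCGAA) stood in 15 of 18 mitosis genes and in 3 of 13 replication genes. CCAAT stood in 17 of 18 and 10 of 13. Over the 39 windows these shares were 38.46% for E2F, 48.72% for CHR and 79.49% for CCAAT. Among all 32851 promoter windows of the table they were 9.574%, 19.23% and 37.41%. The letters of the spacing that STAT6 prefers (TTC, any 4 bases, GAA) stood in 7.692% of the windows of these genes and in 6.953% of all windows. Neither of the 2 Cdkn1a windows held any of these letters. A match is a description of the sequence, not a site known to be bound. The 180 bases before the start are printed for 2 helicase genes, Mcm5 (chr8:75109329-75109508, + strand) and Mcm6 (chr1:128359706-128359885, - strand), and for 2 mitotic regulators, Cdk1 (chr10:69352913-69353092, - strand) and Cdc20 (chr4:118437344-118437523, - strand), because they show both arrangements. Capitals mark E2F, CHR and CCAAT letters on either strand, and in both helicase genes E2F matches overlap each other.
Mcm5: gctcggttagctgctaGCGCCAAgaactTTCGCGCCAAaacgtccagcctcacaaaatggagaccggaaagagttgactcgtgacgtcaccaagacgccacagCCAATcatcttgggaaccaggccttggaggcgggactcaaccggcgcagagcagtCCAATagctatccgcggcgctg
Mcm6: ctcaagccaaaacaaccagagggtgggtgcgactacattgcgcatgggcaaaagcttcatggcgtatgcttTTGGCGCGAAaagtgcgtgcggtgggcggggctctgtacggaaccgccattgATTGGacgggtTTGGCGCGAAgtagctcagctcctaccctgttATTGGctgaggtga
Cdk1: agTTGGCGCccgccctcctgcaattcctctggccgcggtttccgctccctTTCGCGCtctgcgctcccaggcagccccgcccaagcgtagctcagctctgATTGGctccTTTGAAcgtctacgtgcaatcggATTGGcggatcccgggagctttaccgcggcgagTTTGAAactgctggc
Cdc20: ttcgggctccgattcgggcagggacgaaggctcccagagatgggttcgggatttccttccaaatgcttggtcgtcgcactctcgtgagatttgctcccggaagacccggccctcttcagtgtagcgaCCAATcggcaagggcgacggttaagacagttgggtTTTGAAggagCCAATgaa
Mcm5 held 3 E2F and 2 CCAAT matches, and Mcm6 held 4 E2F and 2 CCAAT matches, neither with a CHR match. Cdk1 held 2 matches of each kind. Cdc20 held 1 CHR and 2 CCAAT matches and no E2F match.

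Levels were deposited as FPKM, a measure per transcript length and per mapped fragments of the library, which sets each level relative to the rest of the RNA of its sample. From the steps between low values, the deepest library was read at 1.53 and the shallowest at 0.706 of the typical depth. Stat6 mRNA lay at 58.7 to 90.6 FPKM in WT and at 14.3 to 24.0 FPKM in Stat6-/- samples, without overlap. Macrophage markers summed to 2831 to 5095 FPKM across samples. The progenitor markers Kit, Cd34, Flt3 and Myb were each under 1 FPKM in every sample, and so were the erythroid, T cell and stromal markers. Of the 4 B cell markers Cd79b had 1.11 to 13.6 FPKM and the others stayed under 1. Mast cell and basophil markers summed to 0.269 to 0.890 FPKM in WT and 0.781 to 2.59 FPKM in Stat6-/-, and the 2 eosinophil markers to 1.5 to 6.38 and 5.61 to 8.73 FPKM. The 10 granulocyte markers summed to 229 to 642 FPKM in WT and to 610 to 1110 FPKM in Stat6-/- samples. In bulk samples, fewer dividing cells and less RNA per cell cannot be told apart.

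Pcna, the sliding clamp of the replication fork, was the highest of the 43 genes in WT controls, with 105 FPKM in the lowest, 145 in the median and 190 in the highest of 20 samples. Cdkn1a, which encodes the kinase inhibitor p21, followed at 73.6, 106 and 130 FPKM, overlapping with Pcna, and Ccnd1, cyclin D1, at 18.9, 47.3 and 71.9 FPKM. The helicase subunit Mcm6 had 19.0, 44.8 and 57.7 FPKM, and Birc5, the survivin subunit of the chromosomal passenger complex, 15.0, 33.9 and 60.8 FPKM. Neighbours in this order overlapped across samples. At the other end, the origin-licensing factor Cdc6 had a median of 1.73 FPKM. Ccnd2, cyclin D2, stayed between 0.0915 and 0.941 FPKM in WT controls and reached 1 FPKM in replicate 2 of Stat6-/-, where it was as high as 4.76 FPKM with IL-4 at 3 h. It thus passed the level filter, at least 1 FPKM in at least 1 sample, through that replicate. All 43 genes passed this filter, as did 11146 loci in total.

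In WT BMDMs, different genes of the 43 passed the test at different times with IL-4. Within 1 h Cdkn1a rose and E2f2, an E2F activator, fell. At 6 h 6 of 7 origin-licensing and helicase genes fell, while no mitosis gene passed the test, although 21 of 22 lay below 0. This fit has no replicate block. With a replicate block 1 of 22 mitosis genes fell at 6 h, and 17 of 22 with a block within time, chosen after seeing the data. At 24 h, in the fit without a block, 20 of 22 mitosis genes fell, no helicase gene passed, and Pcna rose. Differences between times or between roles were not tested. A gene was counted as changed when its adjusted p in limma was under 0.05, against the control of the same time.

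At 1 h 1 gene fell and 1 rose, where 3.72% of all loci fell and 5.67% rose. At 3 h 4 fell and 1 rose, against 12.5% and 16.4% of all loci. At 6 h 12 fell and 1 rose, against 19.2% and 22% of all loci. At 24 h 22 fell and 2 rose, against 31.6% and 23.4%. The median difference of the 43 genes, on the log2(FPKM + 1) scale, was -0.05, -0.06, -0.33 and -0.44 at these 4 times, beside -0.02, 0.01, -0.00 and -0.07 over all loci tested. A fall of at least 2-fold at 24 h was met by 11 genes, 10 of them mitosis genes, and by 4.58% of all loci. The plot of changes by role gives each gene at each time.

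**Figure D1:**
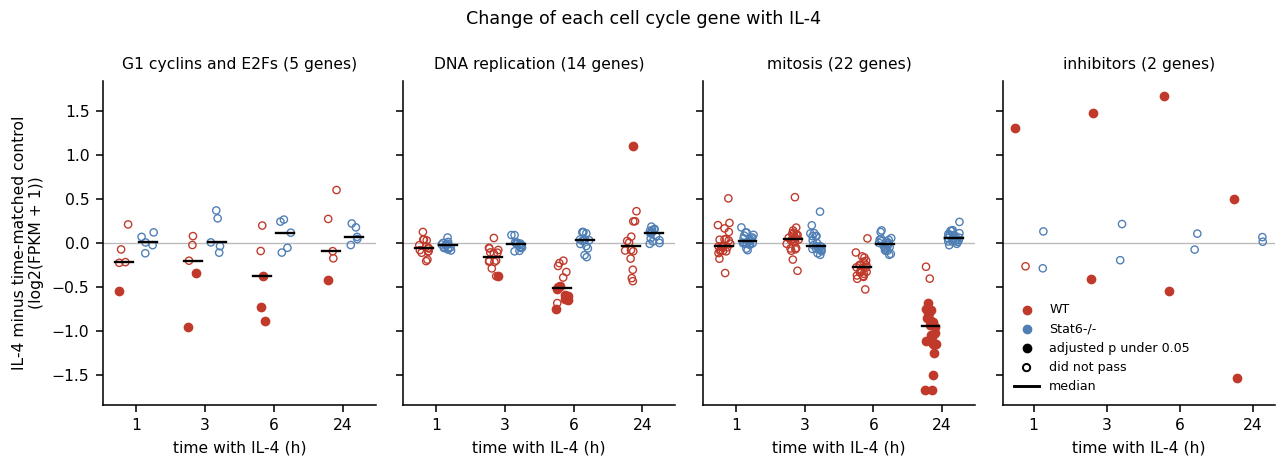
Difference between IL-4 and time-matched control on the log2(FPKM + 1) scale (y axis) at 1, 3, 6 and 24 h (x axis, evenly spaced), 1 point per gene, in 4 panels by role, WT in red and Stat6-/- in blue. Filled points passed the test (adjusted p under 0.05), black bars are medians, and no Stat6-/- point is filled, while WT replication genes lie lowest at 6 h and WT mitosis genes at 24 h, with medians of -0.52 and -0.94.

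The 2 kinase inhibitors moved in opposite directions. Cdkn1a (chromosome 17, 29090986 to 29100722, + strand, mm10) was at 80.9, 85.3, 89.3 and 73.6 FPKM in the 4 WT controls of 1 h and at 203, 182, 244 and 195 FPKM with IL-4. Every IL-4 sample lay above every control. The level was 2.51-fold that of the control, a difference of 1.31 ± 0.14 (SE) on the log2 scale, adjusted p = 2.4e-09. It reached 345 ± 33.5 FPKM (SD, n = 4) at 3 h against 123 ± 5.05 (n = 4), and 345 ± 24.2 at 6 h against 107 ± 5.28. The adjusted p was 4.1e-11 at 3 h and 1.1e-12 at 6 h. At 24 h the 3 IL-4 samples had 157, 149 and 142 FPKM and the controls 107, 100, 114 and 103 FPKM. This difference of 0.49 ± 0.15 passed (adjusted p = 0.0062) and was lost without replicate 2, where it was 0.43. Of the exon bases of Cdkn1a, 7.68% overlap another annotated gene, and reads of the 2 genes there cannot be told apart.

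Cdkn1b (chromosome 6, 134920401 to 134925525, + strand) encodes p27, which holds cyclin E and cyclin A kinases inactive. It fell with IL-4, unlike Cdkn1a, from 3 h on. At 24 h its controls had 28.8, 33.8, 27.6 and 25.9 FPKM and the IL-4 samples 8.84, 9.55 and 9.64 FPKM, with a wide gap between the groups. The ratio was 0.322 and the difference -1.53 ± 0.15, adjusted p = 7.1e-11. At 6 h it was 19.5 ± 1.24 against 29.0 ± 3.06 FPKM (SD, n = 4 each), adjusted p = 0.0015. At 3 h the difference of -0.41 (adjusted p = 0.024) was lost without replicate 1, 3 or 4.

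Among the G1 genes E2f2 responded soonest. E2f2 (chromosome 4, 136172394 to 136196056, + strand) had 9.61, 8.34, 9.54 and 8.97 FPKM in the 1 h controls and 5.79, 5.97, 6.21 and 5.74 FPKM after 1 h with IL-4. The groups did not overlap, and the difference was -0.54 ± 0.06, adjusted p = 2.9e-09. At 3 h it fell to 4.07 ± 0.174 FPKM from 8.86 ± 0.502 (SD, n = 4 each), a ratio of 0.460 and the smallest adjusted p among the 43 genes at that time, 1.9e-16. It remained lower at 6 h (ratio 0.489) and at 24 h (ratio 0.701, adjusted p = 6.5e-07).

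E2f1, the best known E2F activator, moved less. It had 15.8 ± 0.603 FPKM against 20.2 ± 1.01 at 3 h (SD, n = 4 each, adjusted p = 0.017) and 14.8 ± 1.40 against 19.5 ± 2.72 at 6 h (adjusted p = 0.006), where the groups overlapped. The 3 h call was lost without replicate 2, 3 or 4, and the 6 h call without replicate 2. Ccne2, cyclin E2, which drives entry into S phase, fell at 6 h from 2.52, 3.17, 2.61 and 2.99 FPKM to 1.28, 1.77, 0.991 and 1.21 FPKM. This difference of -0.73 ± 0.22 (adjusted p = 0.007) was lost without replicate 3. Cyclin D1 did not pass at any time in this fit, which has no replicate block, with 53.6, 37.8 and 25.7 FPKM in the 3 IL-4 samples of 24 h and 18.9 to 33.5 FPKM in the controls, a 95% interval of the difference from -0.17 to 1.38. Of its exon bases, 23.4% overlap a gene on the opposite strand.

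DNA replication genes were lowest relative to their controls at 6 h, when 8 of 14 fell and none rose. The role of origin licensing and helicase held 6 of the 8 (Cdc6, Mcm3, Mcm4, Mcm5, Mcm6 and Mcm7, of 7 in that role), and the others were Pcna and Prim1, the small subunit of primase. Mcm6 (chromosome 1, 128331591 to 128359656, - strand), whose promoter letters are printed above, had 31.8 to 43.1 FPKM in the 4 controls and 19.7, 24.9, 18.9 and 20.3 FPKM with IL-4. All IL-4 samples were below all controls, a ratio of 0.582 and a difference of -0.75 ± 0.16 (adjusted p = 0.00022). Cdc6, which loads the helicase onto origins, fell from 1.34 to 2.09 FPKM in controls to 0.482 to 0.888 FPKM, without overlap (adjusted p = 7.6e-05). Mcm5 fell from 19.6 ± 3.74 to 12.2 ± 1.96 FPKM, adjusted p = 0.011.

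Replication genes that did not pass at 6 h lay on the same side of 0. The median of the 14 was -0.52, and each of the 14 was below 0. An unadjusted p under 0.05 was met by 10 of the 14 and by 48.4% of all loci. Rrm2, the regulatory subunit of ribonucleotide reductase, had 10.1 ± 2.19 FPKM against 16.8 ± 3.23 (SD, n = 4 each) without overlap, adjusted p = 0.061. Mcm2 had 7.05 against 9.64 FPKM, adjusted p = 0.055. The number of the 43 genes that fell at 6 h was 7 without replicate 3 and 8 without replicate 2, and Prim1 and Mcm7 were each lost on leaving out any replicate. Mcm7 shares 18.1% of its 50-base stretches with transcripts of other genes, so its level is less certain.

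At 24 h, in the fit without a replicate block, the helicase genes did not differ by the test, and Pcna was the replication gene that did. With a replicate block 2 of the 14 replication genes fell and 1 rose. With a block within time, chosen after seeing the data, 4 fell and 4 rose. Mcm5 was at 10.7 ± 4.96 FPKM with IL-4 (n = 3) and 9.61 ± 1.61 in controls (n = 4), a 95% interval of the difference from -0.38 to 0.52. The median of the 14 replication genes was -0.04, with 7 below 0. Among the 3 IL-4 samples replicate 2 was highest for Mcm6, with 28.6 FPKM beside 17.4 and 15.1. Pcna (chromosome 2, 132249286 to 132253180, - strand) had 105, 152, 109 and 116 FPKM in controls and 260, 265 and 245 FPKM with IL-4. The 3 IL-4 samples lay far above the controls, at 2.14-fold, and the difference was 1.10 ± 0.19 (adjusted p = 5.6e-06). At 6 h the same gene had fallen, to 95.8 ± 13.7 from 138 ± 12.4 FPKM (adjusted p = 0.013, lost without replicate 1, 3 or 4). Of the 50-base stretches of Pcna, 19.1% also occur in transcripts of other genes, a pseudogene among them.

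Mitosis genes carried most of the changes at 24 h. Of 22, 20 fell and none rose, with a median difference of -0.94 on the log2 scale. The same 22 genes had a median of -0.28 at 6 h, with 21 below 0. In the fit without a replicate block 1 had an unadjusted p under 0.05 at 6 h, beside 48.4% of all loci. With the block within time, 17 of 22 fell at 6 h. Ccnb2, cyclin B2, a partner of Cdk1 (chromosome 9, 70407689 to 70421554, - strand), had 14.9, 20.5, 13.9 and 11.4 FPKM in controls and 4.81, 3.83 and 3.39 FPKM with IL-4. No sample of the 2 groups overlapped, and the ratio was 0.264 (difference -1.67 ± 0.43, adjusted p = 0.0014). Ube2c, the ubiquitin-conjugating enzyme of the anaphase-promoting complex, fell from 16.3 to 24.4 FPKM in controls to 4.60 to 7.32 FPKM, adjusted p = 0.00085. Birc5 fell from 21.6 ± 6.70 (SD, n = 4) to 6.85 ± 1.82 FPKM (n = 3), adjusted p = 0.00073.

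The falls reached each functional class of mitosis gene. Cdc20, which activates the anaphase-promoting complex, fell from 7.26 ± 1.64 (SD, n = 4) to 2.44 ± 0.540 FPKM (n = 3), adjusted p = 0.005. Mki67 (chromosome 7, 135689788 to 135716379, - strand), the gene of the proliferation marker Ki-67, fell from 10.1, 15.6, 8.38 and 7.54 FPKM to 5.72, 3.52 and 3.78 FPKM. In both genes every IL-4 sample was below every control. Plk1, the kinase that drives mitotic entry, had a ratio of 0.358 (adjusted p = 0.0061), and Kif23, a kinesin of cytokinesis, a ratio of 0.387 (adjusted p = 0.0025). Cdk1 itself changed less, with a ratio of 0.557 (adjusted p = 0.016). The kinesin Kif11 (ratio 0.464) and the kinase Aurka (ratio 0.561) passed although their groups overlapped. The spindle assembly factor Tpx2 (-0.27, adjusted p = 0.33) and the passenger subunit Cdca8 (-0.41, adjusted p = 0.22) did not pass.

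The size of this count depended on the test and on single replicates. With analysis of variance and Tukey adjustment over 16 groups, 2 of the 22 mitosis genes, Birc5 and Ube2c, passed at 24 h, and 18 of the 20 calls were lost. Without replicate 3, 11 of the 43 genes fell at 24 h, and the calls lost then included Cdc20 (-1.14), Mki67 (-1.04) and Top2a (-0.97). Without replicate 2, 15 fell. Ccnb2, Ube2c, Birc5, Plk1, Kif23 and Cdkn1b passed under every omission of a replicate. Granulocyte markers were also lower with IL-4 at 24 h, summing to 229 to 332 FPKM against 461 to 642 FPKM in controls, with 8 of 10 falling. The macrophage markers summed to 2831 to 2902 against 3724 to 4190 FPKM. That list holds Cd14, which the paper names as repressed by IL-4, so its sum does not measure the share of macrophages. Among other lists, the B cell marker Cd79b fell from 3.98 to 1.32 FPKM (adjusted p = 9.3e-05). Their part in the result was not tested.

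**Figure D2:**
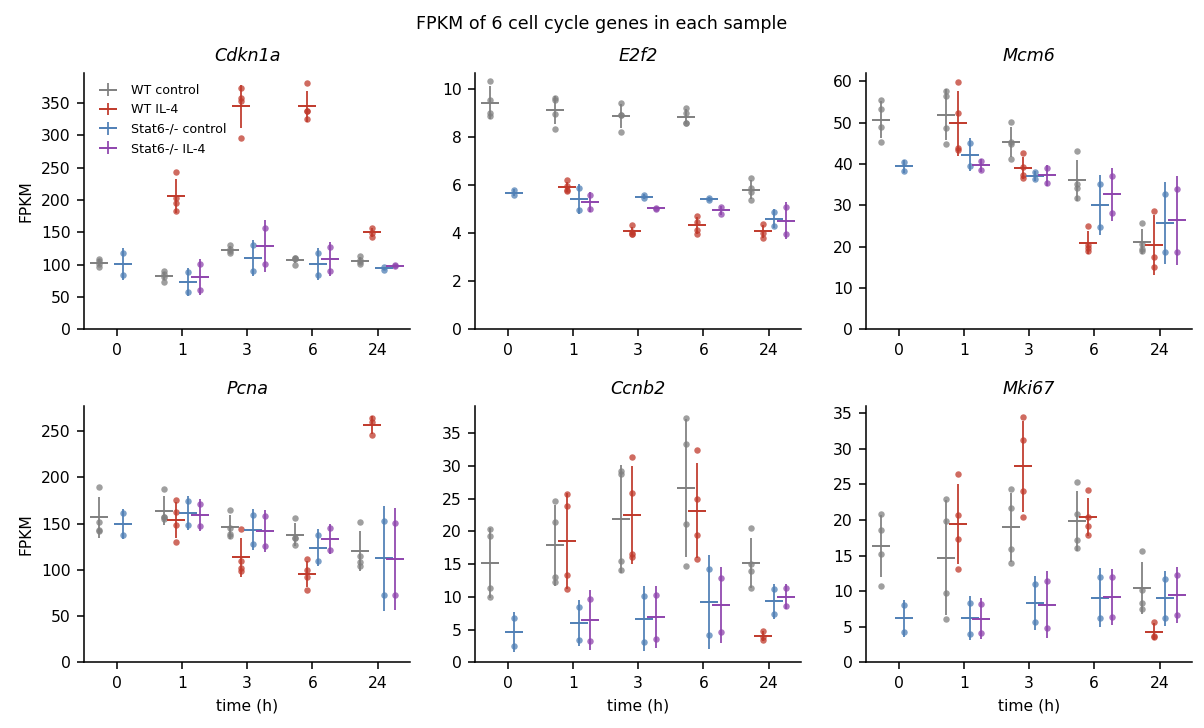
FPKM (y axis, from 0) of Cdkn1a, E2f2, Mcm6, Pcna, Ccnb2 and Mki67 in each sample at 0 to 24 h (x axis, evenly spaced), with 1 point per sample and the mean and SD of each group, coloured by genotype and treatment. With IL-4 in WT, Cdkn1a stands at 206 to 345 FPKM on average from 1 to 6 h, Pcna at 257 FPKM at 24 h, and Ccnb2 at 4.01 FPKM at 24 h, while the Stat6-/- IL-4 samples lie beside their controls.

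In Stat6-/- BMDMs none of the 43 genes passed at 1, 3, 6 or 24 h, and none reached an unadjusted p under 0.05. No locus in the whole table passed either (0% called at each of the 4 times), and 51, 131, 88 and 37 loci had an unadjusted p under 0.05. At 1, 3 and 6 h these were 0.458%, 1.18% and 0.79% of all loci. With no change at all a share of about 0.05 would be expected, so these p-values are conservative. The differences of the 43 genes ranged from -0.29 to 0.18 at 1 h, from -0.20 to 0.37 at 3 h, from -0.16 to 0.26 at 6 h and from -0.03 to 0.24 at 24 h. With 2 samples a group and no replicate block in the fit, the intervals were wide for mitosis genes. Same-numbered samples of 1 time deviated together over the 43 genes (correlations of 0.912 to 0.968), and this fit counts that as spread. With a replicate block, no mitosis or replication gene passed either. Ccnb2 had 7.41 and 11.2 FPKM in the 24 h controls and 8.68 and 11.4 FPKM with IL-4, a difference of 0.11 with a 95% interval from -1.05 to 1.27. For Cdkn1a at 6 h it was 83.5 and 118 FPKM against 89.9 and 127 FPKM, and the interval ran from -0.30 to 0.51. Pcna at 24 h had 153 and 72.7 FPKM in controls and 151 and 72.5 FPKM with IL-4, so that the replicates were far apart and the treatments close.

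The difference between the responses of the 2 genotypes was tested as an interaction. It passed for 2 of the 43 genes at 1 h (3.36% of all loci), 2 at 3 h (11.2%), 5 at 6 h (16.5%) and 4 at 24 h (27%). E2f2 passed at each of the 4 times, with responses that differed by -0.52, -0.85, -0.78 and -0.40 (WT minus Stat6-/-; adjusted p = 0.00079, 4.8e-08, 2.4e-07 and 0.0039). Cdkn1a passed at 1, 3 and 6 h, with 1.18, 1.26 and 1.57 (adjusted p = 0.0015, 0.00023 and 5.8e-06). At 6 h Mcm6 (-0.88, adjusted p = 0.026), Mcm4 (-0.72, adjusted p = 0.04) and Cdc6 (-0.67, adjusted p = 0.03) passed as well. At 24 h Cdkn1b (-1.55, adjusted p = 9.7e-06), Pcna (1.11, adjusted p = 0.0062) and Birc5 (-1.61, adjusted p = 0.044) passed. Fitted on the samples compared alone, E2f2 and Pcna did not pass at 24 h (adjusted p = 0.078 and 0.14).

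Most mitosis genes did not pass this test in the fit without a replicate block. At 24 h 1 of 22, Birc5, passed, with a median of -1.08 over the 22 genes. With a replicate block 19 of 22 passed at 24 h, and 22 of 22 with a block within time, chosen after seeing the data. Ccnb2 had -1.78, a 95% interval from -3.24 to -0.33 and an adjusted p of 0.06, and Mki67 had -1.14 with an adjusted p of 0.14. Leaving out WT replicate 1, 3 or 4 or Stat6-/- replicate 1 left 2 genes at 6 h, and leaving out Stat6-/- replicate 2 left 3. The call of Birc5 was lost without any 1 WT replicate or without Stat6-/- replicate 1, at differences of -1.48 to -1.62.

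Cell cycle genes also changed with time in culture without IL-4. Between 0 and 24 h of control culture in WT, 20 of the 43 genes fell and 1 rose, where 11.6% of all loci fell and 5.67% rose. DNA replication genes led, with 13 of 14 falling, the exception being Pcna (-0.39). Of the mitosis genes 3 of 22 fell, Top2a, the topoisomerase that untangles chromosomes, Kif11 and the checkpoint kinase Bub1b. This fit has no replicate block. With a replicate block 11 of 22 mitosis genes and 14 of 14 replication genes fell. Mcm5 had 26.7, 23.9, 25.9 and 33.1 FPKM at 0 h and 9.98, 11.6, 8.98 and 7.83 FPKM at 24 h, a difference of -1.42 ± 0.21 (adjusted p = 5.3e-06). No 24 h control reached the lowest 0 h control. Mean Mcm6 levels were 50.7, 51.9, 45.3, 36.0 and 21.2 FPKM over the 5 control times in order, and its fall from 0 to 24 h passed (adjusted p = 1.2e-06). Of the G1 genes Ccnd1, Ccne2, E2f1 and E2f2 fell, E2f2 from 9.43 ± 0.669 to 5.81 ± 0.388 FPKM (SD, n = 4 each). The mitosis genes had a median of -0.58, with 20 of 22 below 0. Ccnb2, which was not below 0, was at 15.2 ± 5.31 FPKM at 0 h and 15.2 ± 3.83 at 24 h. The single rise, of Cdkn1b from 17.7 to 22.6 FPKM at 0 h to 25.9 to 33.8 FPKM at 24 h (adjusted p = 0.024), was lost on leaving out any of the 4 replicates. Top2a, Bub1b, E2f1 and Ccnd1 were each lost without replicate 1, 3 or 4, and Kif11 without replicate 3 or 4. Thus, in the fit without a block, no mitosis gene passed over time without replicate 3 or without replicate 4.

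The same control cultures of Stat6-/- BMDMs gave no gene that passed among the 43, where 0.718% of all loci passed. E2f2, Mcm2, Mcm3, Mcm5 and Mcm6 had an unadjusted p under 0.05, with differences of -0.26 to -0.67. The share of all loci at that limit is not given here. The median was -0.41 for the 14 replication genes and 0.40 for the 22 mitosis genes, none of which was below 0. The 2 replicates moved in opposite directions, so this mean rise rests on replicate 2. The summed FPKM of the mitosis genes went from 149 to 118 in replicate 1 and from 81.7 to 204 in replicate 2. Ccnb2 went from 6.84 and 2.53 FPKM at 0 h to 7.41 and 11.2 FPKM at 24 h. Without replicate 1 of Stat6-/- 4 of the 43 genes passed, and without replicate 2 it was 8, where the 1 sample left at each time is assumed to vary like the other groups.

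Before and early in the culture, mitosis genes had lower levels in Stat6-/- than in WT controls, and at 24 h the means lay closer. The 2 Stat6-/- replicates differed at 24 h. The summed FPKM of the 22 mitosis genes was 118 in replicate 1, below every WT control (148 to 282), and 204 in replicate 2. Averaged over the 5 control times for each replicate number, both Stat6-/- values lay below all 4 WT values for 32 of the 43 genes, against 12.5% of all loci tested. The median difference of the 43 genes was -0.75 on the log2 scale, and -0.01 over all loci. In the test over these 6 values none of the 43 passed (0.0179% of all loci did), with 31 of 43 and 13.1% of all loci at an unadjusted p under 0.05. The smallest adjusted p among the 43 was 0.073, for E2f2, with a difference of -0.56. Ccnb2 had the largest difference, -1.38 ± 0.33 (SE), adjusted p = 0.16.

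At 0 h Mki67 had 10.7, 15.3, 18.6 and 20.8 FPKM in WT and 8.02 and 4.33 FPKM in Stat6-/-. Ube2c had 10.1, 15.3, 29.4 and 24.5 FPKM in WT and 10.1 and 4.60 FPKM in Stat6-/-, so the lowest WT sample was level with the higher Stat6-/- sample. E2f2 had 8.88 to 10.3 FPKM in WT and 5.59 and 5.78 FPKM in Stat6-/-, apart by more than the spread of either group. At 0 h, 34 of the 43 genes had both Stat6-/- samples below all WT samples (11.3% of all loci). The count was 28 at 1 h (10% of all loci), 34 at 3 h (13%) and 26 at 6 h (10.8%). At 24 h it was 3 (Cdkn1a, E2f2 and Ccnb2), against 6.94% of all loci. The median over the 22 mitosis genes was -1.22, -1.13, -1.11 and -1.07 at 0, 1, 3 and 6 h and -0.28 at 24 h, and over the 14 replication genes it went from -0.44 at 0 h to 0.19 at 24 h.

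**Figure D3:**
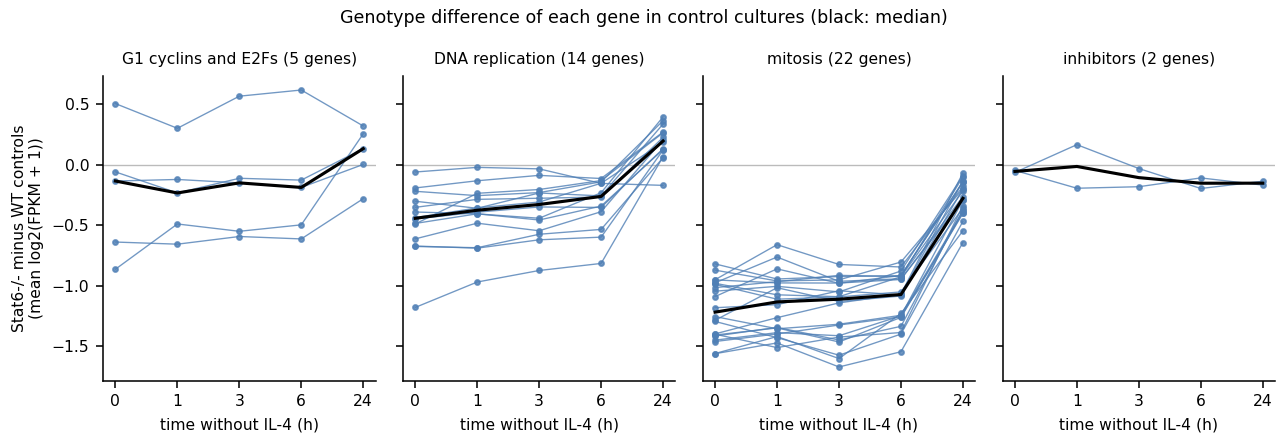
Stat6-/- minus WT difference of the mean log2(FPKM + 1) in controls (y axis) at 0, 1, 3, 6 and 24 h (x axis, evenly spaced), 1 line per gene in 4 panels by role, with the median in black. Mitosis genes lie far below 0 up to 6 h, with a median of -1.22 at 0 h, and near 0 at 24 h, with a median of -0.28. At 24 h the 2 Stat6-/- replicates behind these means were far apart (summed FPKM of mitosis genes 118 and 204).

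Calls on genotype varied with the fit. With the 0 h controls alone 6 of the 43 genes passed, E2f2, Kif11, Kif23, Cdca3, Top2a and Tpx2, where 243 of 11146 loci did. With the 24 h controls alone none of the 43 did (1 at an unadjusted p under 0.05, beside 5.63% of all loci). Without Stat6-/- replicate 1, which leaves 1 Stat6-/- value that is assumed to vary like the WT values, 26 passed. Granulocyte markers were higher in Stat6-/- controls, with a median difference of 0.61 over the 10 markers, 7 of them at an unadjusted p under 0.05 and none passing. The eosinophil marker Prg2 (1.00, adjusted p = 0.13) and Cd79b (0.48, adjusted p = 0.16) also lay higher, and the part of these markers in the result was not tested. With 4 and 2 replicate numbers and no label of culture day, genotype cannot be told apart from animal, culture or processing.

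Across samples the mitosis genes moved together. Over all 53 samples the correlation of log2(FPKM + 1) with Mki67 was 0.88 to 0.97 for the other 21 mitosis genes, with 0.97 for the kinetochore gene Cenpf. Replication genes spread widely, from 0.80 for Rrm1, 0.78 for Rrm2 and 0.77 for Tyms to 0.30 for Mcm6 and 0.28 for Mcm4. Pcna was the only replication gene below 0, at -0.36. These samples share groups and replicate numbers, so the values describe this set of samples. The loci most like Mki67 that are outside the 43 genes were Parpbp, C330027C09Rik, Ect2, Ncapg and Hmmr, each at 0.96 or 0.97.

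Replicates of the same number deviated together in the mitosis genes up to 6 h, and in another order at 24 h. The summed FPKM of the 22 genes in WT controls of 0 h was 214, 253, 367 and 368 for replicates 1 to 4, and at 6 h it was 264, 349, 423 and 513. At 24 h it was 203, 282, 178 and 148, with replicate 4 now lowest. In Stat6-/- controls replicate 1 was above replicate 2 at 0 h (149 against 81.7) and below it at 24 h (118 against 204). IL-4 at 24 h in WT left 111, 75.1 and 73.6 in replicates 2 to 4, under every WT control. Summed levels of the 14 replication genes at 24 h were 326 to 402 FPKM with IL-4 and 202 to 277 FPKM without, most of it from Pcna.

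**Figure D4:**
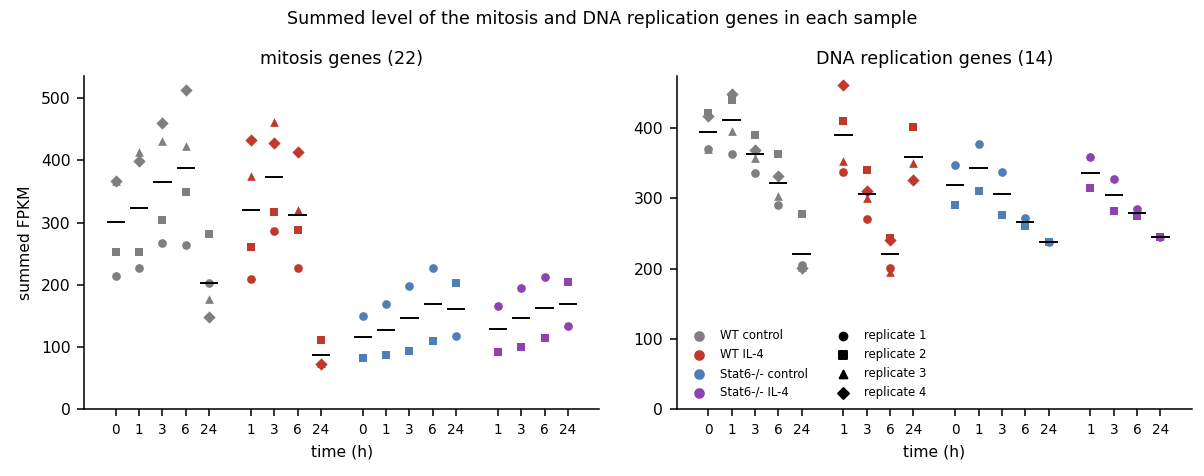
Summed FPKM of the 22 mitosis genes (left) and the 14 DNA replication genes (right) in each sample (y axis, from 0), by time (x axis, evenly spaced) within genotype and treatment; marker shapes are replicate numbers and bars are means. WT samples with IL-4 for 24 h hold the lowest WT sums of mitosis genes, 73.6 to 111 FPKM, and replicate order among WT controls differs between 6 h and 24 h.

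A wider list of 103 other cell cycle genes, 102 of them tested, was read beside the 43. At 6 h, when 19.2% of all loci fell, 26 of 40 replication genes fell and 1 of 45 mitosis genes did, in the fit without a replicate block. Yet 37 of the 40 lay below 0, with a median of -0.41, and 43 of the 45, with a median of -0.32. At 24 h 32 of the 45 mitosis genes fell and none rose, and 9 of the 40 replication genes fell and 8 rose, beside 31.6% falling and 23.4% rising over all loci. Chaf1b, a subunit of the factor that places histones on new DNA, fell from 7.48 to 3.55 FPKM at 6 h. Nusap1, a spindle protein, fell from 6.30 to 2.12 FPKM at 24 h. Dut, which keeps uracil out of DNA, rose from 2.62 to 5.63 FPKM at 24 h, and the G1 cyclin gene Ccne1 from 1.71 to 3.32 FPKM. Genes that restrain division moved both ways, 7 falling and 3 rising of 17 at 6 h, beside 19.2% and 22% over all loci. The antiproliferative gene Btg2 fell from 19.5 to 5.47 FPKM at 1 h, and the inhibitor gene Cdkn2b rose from 0.412 to 2.80 FPKM at 3 h. Cdkn1c, p57, fell from 5.63 to 1.17 FPKM at 24 h. In control culture of WT 37 of the 40 replication genes fell between 0 and 24 h, among them Uhrf1, which copies DNA methylation, from 12.6 to 3.51 FPKM.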

How the data were processed

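Poly-A RNA libraries of 35 WT and 18 Stat6-/- BMDM samples were sequenced as paired reads with an unstranded kit. Per the labels and the study's methods, the authors aligned reads to mm10 with TopHat2 (2.0.7) and deposited, for each sample, FPKM values from Cufflinks (2.0.2), without pooling replicates. The FPKM tables hold no counts, so no count model was used. Read totals are unknown; relative depth (0.706 to 1.53) was read from the steps of low values.

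Values were tested here as log2(FPKM + 1) with limma (3.58.1, R 4.3.3; lmFit, contrasts, eBayes with trend, two-sided), over the 11146 loci whose highest sample reached 1 FPKM. A mean was fitted per group over all 53 samples (35 residual degrees of freedom), with Benjamini-Hochberg adjustment within each of 15 contrasts. Log2 differences on this scale understate changes of low genes. Intervals (95%) use the fitted SE and these degrees of freedom. Genotype in controls was tested over 6 values, 1 per replicate number, each the mean of 5 control times. Alternatives covered the pseudocount (0.1 FPKM), no filter or a stricter one, quantile normalization, a replicate block, fits on the samples compared, a 2-fold requirement, analysis of variance with Tukey adjustment over 16 groups, and leaving out each replicate. The fits were tested on simulated data.

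All 43 genes could be named, and others were named from fixed lists or as the loci most like Mki67. The members and lists were chosen with earlier results of these data known. Samples were grouped by their labels. The study describes the WT data as coming from 4 individual animals, and gives 2 Stat6-/- replicates without saying what separates them. Neither it nor the labels tie a replicate number to an animal across times, so p-values measure the spread between these samples. No 2 samples held identical values. Motifs were matched with Python (3.11.15).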

Additional observations from a re-analysis of the deposited data

Results flagged for a closer look

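Differences between the 2 genotypes in the response to IL-4 (WT minus Stat6-/-, log2(FPKM + 1) scale) passed the interaction test for 13 values. Cdkn1a differed by 1.18 at 1 h, 1.26 at 3 h and 1.57 at 6 h, while E2f2 had a difference of -0.52 after 1 h, -0.85 after 3 h, -0.78 after 6 h and -0.40 after 24 h. At 6 h Mcm6 differed by -0.88, Mcm4 by -0.72 and Cdc6 by -0.67. At 24 h Birc5 differed by -1.61, Cdkn1b by -1.55 and Pcna by 1.11.

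In 5 of 344 groups of 4 samples (1.45%), 1 sample stood apart from the other 3 by Dixon's criterion, where chance gives about 1 in 20. E2f1 was lowest at 15.0 FPKM in replicate 2 of the WT 24 h controls, whose highest sample had 16.4 FPKM. Pcna was highest at 187 FPKM in replicate 2 of the WT 1 h controls. In replicate 1 of the WT 0 h controls Prim1 was lowest at 6.76 FPKM and Cdkn1b at 17.7 FPKM. Cenpe, a kinetochore motor, was lowest at 3.25 FPKM in replicate 1 of the WT samples with IL-4 for 3 h.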

How the results depend on the processing

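Values are numbers of the 43 genes passing. Single genes kept their direction in 909 alternatives of 78 values, with 786 on the same side of the threshold and 123 no longer past it. The cause of the differences was not tested. Requiring 2-fold as well left 0 falling at 1, 3 and 6 h and 11 at 24 h with IL-4 in WT, 1 rising at 24 h, 1 interaction at each of 1, 3 and 6 h, and 9 falling and 0 rising over time in WT. Fits on the samples compared gave 8 falling at 3 h and 1 interaction at 1 h. Tukey adjustment left 1, 5 and 4 falling at 3, 6 and 24 h and 1 rising at 24 h.

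Leaving out 1 replicate gave 1 to 3 falling at 3 h, 7 to 9 at 6 h and 11 to 22 at 24 h, 1 to 2 rising at 24 h, 2 to 4 interactions at 6 h and 3 to 6 at 24 h, 15 to 21 falling and 0 rising over time in WT, 4 to 8 over time in Stat6-/-, and 0 to 26 between genotypes. Genotype gave 6 at 0 h alone and 21 with replicate number as a random effect.

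Replicate numbers are not tied to animals by the labels. Deviations of same-numbered samples at 1 time correlated over 0.1 in 13 of 15 WT pairs and 8 of 8 Stat6-/- pairs (means over all same-number pairs 0.223 and 0.714), and over the 43 genes alone in 15 of 15 (0.179 to 0.955) and 8 of 8 (0.912 to 0.968). In Stat6-/- groups of 2 samples the deviations mirror each other, so both pairs of a time give the same correlation and the 8 are not separate values. Because 2 WT pairs over all loci fell short, the fit without a block was kept. A replicate block gave 8 interactions at 6 h, 24 at 24 h and 7 genes over time in Stat6-/-. Of the 22 mitosis genes, 19 passed the 24 h interaction with this block and 22 with the block within time, against 1 without. With IL-4 in WT at 6 h, 1 and 17 mitosis genes fell with these blocks, against 0 without. Ccnd1 passed at 24 h with the block (0.60). With IL-4 in WT the replicate block gave 1, 5, 15 and 25 falling, with 30 falling over time, and 0 at each time in Stat6-/-. A replicate block within time, chosen after seeing the data because the order of replicates changed at 24 h, gave 5, 11 and 35 falling at 1, 3 and 6 h, 3, 3 and 7 rising at 1, 3 and 24 h, and 7, 24 and 32 interactions at 3, 6 and 24 h. Leaving out the WT 1 h control of replicate 2, also chosen after seeing the data, kept 1 falling and 1 rising at 1 h.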
